A study of Mus musculus with 14 samples.

Results

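In 81K1 cells, 4079 H3K27ac islands of the control lay between genes, measured 5 to 8.5 kb and overlapped an H3K4me3 island. They are 4079 of the 38737 control H3K27ac islands on chromosomes 1 to 19 and X. The members were chosen from the control lists alone. Each had an H3K27ac island with an end minus start of 5000 to 8500 bp, lay outside every GENCODE gene body and more than 2.5 kb from every transcription start site (TSS), and shared at least 1 bp with a control H3K4me3 island. Width, position, control H3K27ac and control H3K4me3 are therefore the choice itself and not results. Of the 11101 islands of that width, 6767 were intergenic, and 4079 of these had H3K4me3.

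81K1 is 1 clone of mouse embryonic stem cells made from the OG2 line. It carries a doxycycline-inducible shRNA against Smarcb1, a core subunit of the BAF chromatin remodelling complex, in the Rosa26 locus, in both groups alike. Control cells were untreated, and Smarcb1 kd cells received 1 µg/ml doxycycline daily and were fixed after 72 h. Chromatin immunoprecipitation followed by sequencing was done for H3K27ac, H3K4me3, H3K27me3, Ezh2 and Smarca4, with 1 library per antibody and condition and 4 background libraries. The 10 deposited lists hold called regions with no read counts, so that the depth is unknown, a missing call is not a measured absence, and Smarcb1 itself cannot be checked. No spread between replicates exists and no test between conditions was made. Each share carries its 95% Wilson interval where one is printed, which takes in the error of counting and nothing else. An H3K27ac island lay within 1 kb of the TSS of 5 of 7 embryonic stem cell marker genes in the control, with none at Esrrb and Klf4, and an H3K4me3 island of 6 of 7. Of 4 fibroblast markers 0 had either mark in the control and 2 had H3K4me3 after kd, and of 3 endoderm markers 1, Gata6, had H3K4me3 in both conditions.

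H3K27ac marks active promoters and enhancers, H3K4me3 marks active or poised promoters, and Smarca4 is the ATPase of the BAF complex. Much of the mouse genome consists of copies of retrotransposons. LINE-1 elements are the most numerous that still move on their own. A full-length LINE-1 has a promoter at its 5′ end, an untranslated leader, a short and a long open reading frame and a 3′ tail, and no terminal repeats. In the mouse the 5′ end is built of tandem units, and subfamilies such as A, Tf and Gf differ in the unit they carry. Elements with long terminal repeats have the same repeat at both ends instead. Most copies of either kind are silenced by DNA methylation and repressive histone marks in somatic cells, whereas embryonic stem cells are known to transcribe some.

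The members were almost wholly repeat sequence. The reference sequence (GRCm38) writes repeat-masked bases in lower case without naming the kind of repeat. Masked bases made up a median of 99.3% of a member, against 34.3% of the genome, 98.9% of the 2688 intergenic islands of the same width without H3K4me3, 97.5% of the 2789 islands of the same width with H3K4me3 in or near genes, and 96.5% of all control islands. At least 50% of the bases were masked in 4046 members (99.2%, interval 98.9 to 99.4%), and 1061 members (26.0%) were masked throughout. Island widths, read in steps of 200 bp by the peak caller, had a median of 6400 bp and most often fell at 6200 bp (533 members) and 6400 bp (529 members). The longest masked run touching a member, with no gap joined, had nearly the same length, at a median of 6414 bp (quartiles 6092 and 6737 bp), and 62.8% of the runs measured 6000 to 7000 bp. The planned measure joined gaps of up to 100 bases and gave a longer median of 6962 bp (quartiles 6537.5 and 8133 bp). By that measure 49.0% fell at 6000 to 7000 bp. The sequence run was measured without any sequencing data. At the lower width limit, the 139 members of 5200 bp were masked to a median of 99.9%, as were the 119 intergenic H3K4me3 islands of 5000 bp just outside it. At the upper limit, the 41 members of 8400 bp and the 38 islands of 8600 bp just outside were masked to medians of 95.9% and 94.7%.

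**Figure D1:**
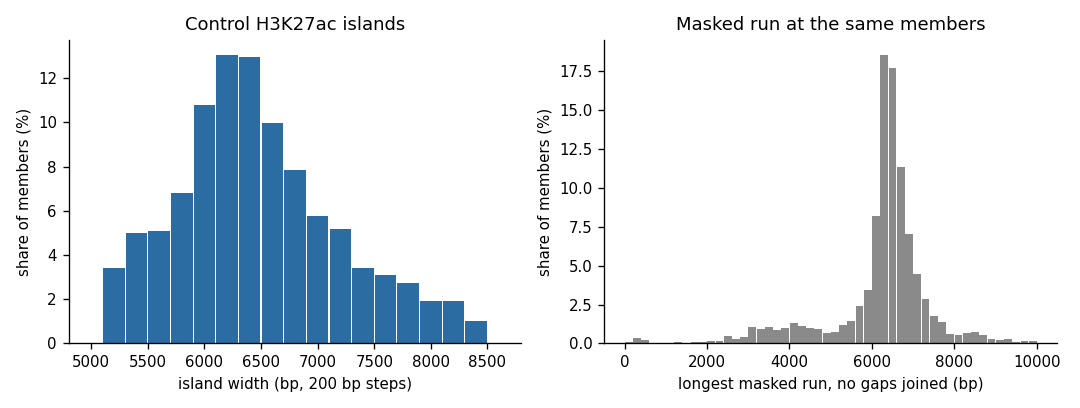
Share of the 4079 members (y axis, %) by the width of the control H3K27ac island in 200 bp steps (left) and by the length of the longest masked run of the reference sequence at the same member, with no gap joined (right, runs up to 10000 bp drawn). Both distributions have their highest bars between 6000 and 6600 bp; the left one is limited to 5 to 8.5 kb by the choice of members.

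One sequence family held 3970 of the 4079 members (97.3%, interval 96.8 to 97.8%). These members aligned to a central member at a median identity of 96.7%, over a median of 99.5% of the shorter sequence. Nothing in the choice of members used sequence. The element was also frequent outside the members. A long copy, defined below, lay in 95.6% of the members and 40.8% of all control H3K27ac islands. It lay in 78.3% of the intergenic islands of this width without H3K4me3. The share was 70.0% for this width with H3K4me3 in or near genes and 67.2% for intergenic H3K4me3 islands of other widths. The family showed the layout of a full-length LINE-1. Its copies had a long open reading frame on 1 strand, with 1281 codons in 1315 members, the most common length, and at least 1000 codons in 1756 of 3970 (44.2%). On the opposite strand 0 members reached 1000 codons. The strand with the reading frame was plus in 1947 and minus in 2023 members. Translated, the central member matched a transcript of L1td1, a stem cell gene derived from a LINE-1 reading frame, at 40.7% of 123 amino acids. Direct repeats of 200 to 1000 bases at both ends were found in 52 family members (1.31%, interval 1.00 to 1.71%). The masking names no subfamily, and none was assigned here. The elements are called LINE-1-like below.

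Of the LINE-1-like members, 3854 reached the 5′ end of the central member, called the anchor here. The masked run upstream of the anchor was compared between members by its 14-base words, leaving out the 400 bases next to the anchor. Of the 3368 members with enough masked sequence there, most fell into 3 types of 5′ end, with 1558 members in type 1, 1325 in type 2 and 354 in type 3. The other 131 formed no type, and 486 members had a short 5′ end with too few masked bases. No ChIP-seq value entered this step. A tandem repeat was found in all 3 types, though seldom in type 3. Among members with at least 500 bp to measure, it was found in 656 of 1126 in type 1, 526 of 912 in type 2 and 36 of 228 in type 3. The most common unit was 212 bp in type 1 (412 members), 208 bp in type 2 (451 members) and 206 bp in type 3 (28 members). One unit of each type is shown because most Smarca4 peaks in members lay upstream of the anchor, as given below. Whether the peaks depend on the unit was not tested. Each was taken from the first eligible member in genome order with a unit identical to its neighbour inside the island. Sequences are from GRCm38, in the sense of the element, and capitals mark CG dinucleotides. The type 1 unit lay at chr1:21201789-21202000 (minus strand), the type 2 unit at chr1:15743004-15743211 (minus strand) and the type 3 unit at chr1:63803950-63804155 (minus strand), all intergenic.
type 1: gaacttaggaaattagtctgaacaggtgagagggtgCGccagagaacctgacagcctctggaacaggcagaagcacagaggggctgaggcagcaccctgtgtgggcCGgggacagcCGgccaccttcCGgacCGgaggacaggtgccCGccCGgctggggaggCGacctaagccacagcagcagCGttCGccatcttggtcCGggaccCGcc
type 2: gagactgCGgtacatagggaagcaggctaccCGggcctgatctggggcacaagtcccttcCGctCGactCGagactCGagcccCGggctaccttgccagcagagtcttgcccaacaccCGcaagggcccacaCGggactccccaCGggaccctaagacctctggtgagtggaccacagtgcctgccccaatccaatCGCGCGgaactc
type 3: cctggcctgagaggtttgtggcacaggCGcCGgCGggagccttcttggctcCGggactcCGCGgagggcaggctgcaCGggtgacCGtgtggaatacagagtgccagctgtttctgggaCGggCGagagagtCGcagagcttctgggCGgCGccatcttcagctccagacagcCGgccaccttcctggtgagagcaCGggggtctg
These units held 12, 13 and 15 CG dinucleotides. Over all members of a type, the masked run upstream of the anchor had a median GC content of 53.4% in type 1, 53.9% in type 2 and 52.5% in type 3, and 3.13, 3.27 and 3.23 CG dinucleotides per 100 bp. The member with the type 1 unit, nearest to the TSS of Tmem14a, had a Smarca4 peak with a score of 91 in the control and of 294 after kd. The member with the type 2 unit, nearest to the snoRNA gene Gm25168, had no Smarca4 peak in the control and one with a score of 100 after kd. The member with the type 3 unit, nearest to 4933402D24Rik, had scores of 64 and 237 and an H3K27me3 island in the control alone. All 3 members kept both marks after kd.

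Both histone marks were called again at almost all members after Smarcb1 kd. A kd H3K27ac island overlapped 4062 members (99.6%, interval 99.3 to 99.7%), against 76.4% of all control H3K27ac islands. Among the comparison sets, the share was 98.2% (97.6 to 98.6%) for islands of this width with H3K4me3 in or near genes, 94.5% (93.4 to 95.3%) for intergenic H3K4me3 islands of other widths and 92.3% (91.3 to 93.3%) for intergenic islands of this width without H3K4me3. The kd island had a median width of 6400 bp, the same as in the control, and covered a median of 96.9% of the member. A kd H3K4me3 island overlapped 4022 members (98.6%, 98.2 to 98.9%), against 47.6% of all control H3K27ac islands, most of which had no H3K4me3 in the control either. Of the sets chosen, like the members, for control H3K4me3, the share was 97.1% (96.4 to 97.7%) for this width in or near genes and 90.9% (89.6 to 92.0%) for intergenic islands of other widths. Both marks were called after kd at 4012 members (98.4%), against 45.9% of all control islands and 96.3% of the islands in or near genes, and neither at 7 members (0.172%), against 21.9%. H3K4me3 was lost at 57 members (1.40%), against 2.09% of all control islands, which had it in the control in 34.3% of the cases.

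H3K4me3 covered more of the element after kd. At the members its islands had a median width of 4200 bp in the control (quartiles 2800 and 6200 bp) and of 6400 bp after kd (6200 and 7000 bp), and covered a median of 67.7% of the member in the control and all of it after kd. The islands of the same width in or near genes moved likewise, with median H3K4me3 widths of 4600 and 6400 bp and coverages of 69.7% and 96.7%. Along the LINE-1-like elements, control H3K4me3 was called in 94.3% of the members at position -500 bp from the anchor (negative is upstream), in 69.5% at 1500 bp downstream and in 43.3% at 4700 bp. After kd the values were 97.2%, 96.2% and 94.1%. The control islands thus thinned out from the 5′ to the 3′ end, and the kd islands ran nearly the full length. H3K27ac covered the body of the element in both conditions, with all and 96.5% of the members at 1500 bp and 92.6% and 91.0% at 4700 bp. The members were chosen on control islands of both marks, so the control H3K27ac profile follows in part from the choice.

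The p-value of the island, given by the authors' caller and not scaled between libraries, was lower after kd for most members. For H3K4me3 the median of -log10 p was 34.6 in the control and 77.3 after kd, with a lower p in 3609 of 4022 members (89.7%), against 77.5% of all control H3K4me3 islands. The median rise in -log10 p was 38.3 at the members and 36.2 over all control H3K4me3 islands. For H3K27ac the medians were 26.4 and 33.1, with a lower p in 2784 of 4062 members (68.5%), against 59.1% of all control islands. Both kd lists were longer than the control lists, with 50700 against 38737 islands for H3K27ac and 33128 against 25873 for H3K4me3 on these chromosomes. The part of list length in these shares was not tested beyond the shortened lists given in the closing section. By 5′ end, the median of -log10 p for H3K27ac went from 30.9 to 43.9 in type 1, from 22.8 to 30.1 in type 2, from 21.4 to 25.3 in type 3, and from 26.9 to 27.1 in members with a short 5′ end. For H3K4me3 the control medians were 67.9 in type 1, 28.04 in type 2, 40.1 in type 3 and 17.6 with a short 5′ end. After kd these were 147, 67.5, 74.6 and 35.2.

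Smarca4 was called in many more members after kd. A Smarca4 peak lay in 1203 members in the control (29.5%, interval 28.1 to 30.9%), against 23.0% of all control H3K27ac islands, and in 2873 members after kd (70.4%, 69.0 to 71.8%), against 29.6%. Of the members, 1191 had a peak in both lists, 1682 after kd alone (41.2%, against 9.84% of all islands) and 12 in the control alone (0.294%, against 3.19%). The kd Smarca4 list as deposited was the shorter one, with 72126 peaks against 78960 on these chromosomes. The paper's own Smarca4 peak counts are smaller and slightly higher after kd. Intergenic islands of the same width without H3K4me3 had a Smarca4 peak in 9.49% of the cases in the control (8.44 to 10.7%) and 10.1% after kd (9.04 to 11.3%). These near equal shares join 2 opposite changes. The 2106 islands with a long LINE-1-like copy, defined below, had a peak in 0.427% and 3.47%. The 582 without a copy had one in 42.3% and 34.2%. Of the islands with H3K4me3 of this width in or near genes, 52.2% had one in the control and 80.2% after kd. In intergenic H3K4me3 islands of other widths the shares were 26.2% and 47.1%. The share was thus higher after kd in each set with H3K4me3, and the interval for the members after kd overlapped that of none of these sets. Smarca4 was immunoprecipitated by Active Motif and the 2 marks in the authors' laboratory, so differences between antibodies and laboratories cannot be told apart.

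**Figure D2:**
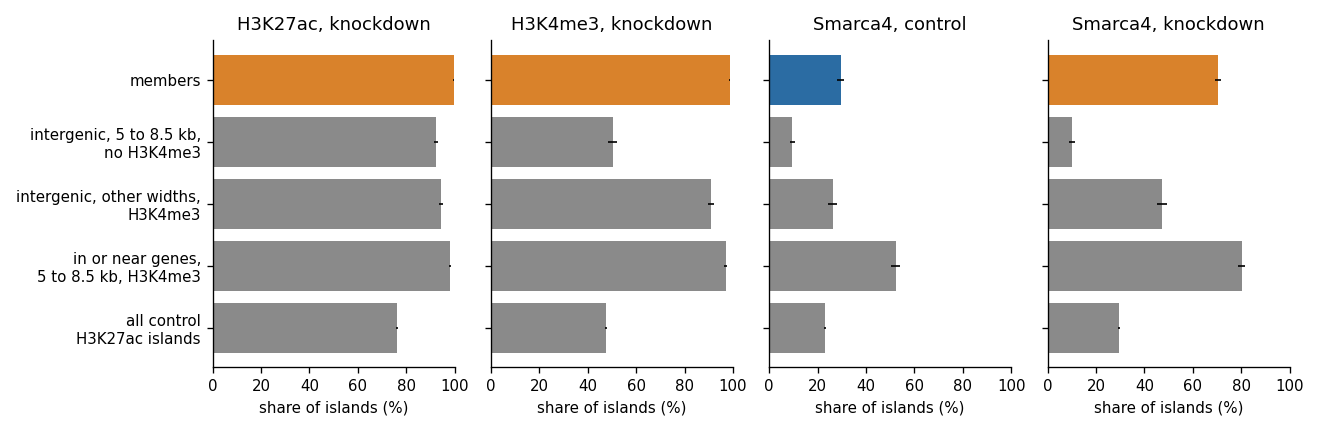
Share of islands (x axis, %) that overlapped a kd H3K27ac island, a kd H3K4me3 island, a control Smarca4 peak and a kd Smarca4 peak, for the members (coloured), 3 comparison sets and all 38737 control H3K27ac islands (grey), with 95% Wilson intervals. The Smarca4 share of the members is 29.5% in the control and 70.4% after kd, and that of intergenic islands of the same width without H3K4me3 is 9.49% and 10.1%.

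The Smarca4 peaks sat at the 5′ end of the element. Of 1237 control peaks that could be placed, 1173 (94.8%) had their middle between -1500 and 200 bp from the anchor, at a median of -858 bp (quartiles -1017 and -754 bp). Of 2880 kd peaks 2834 (98.4%) did, at a median of -773 bp (-902 and -673 bp). At -700 bp, a Smarca4 peak covered 22.3% of the LINE-1-like members in the control and 67.5% after kd, and from 200 bp to 3400 bp downstream 0 members were covered in either list. A member with a peak had 1.17 peaks in the control and 1.09 after kd on average. Peaks in members had a median width of 406.5 bp in the control (435 bp for all peaks) and of 549 bp after kd (391 bp for all peaks).

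**Figure D3:**
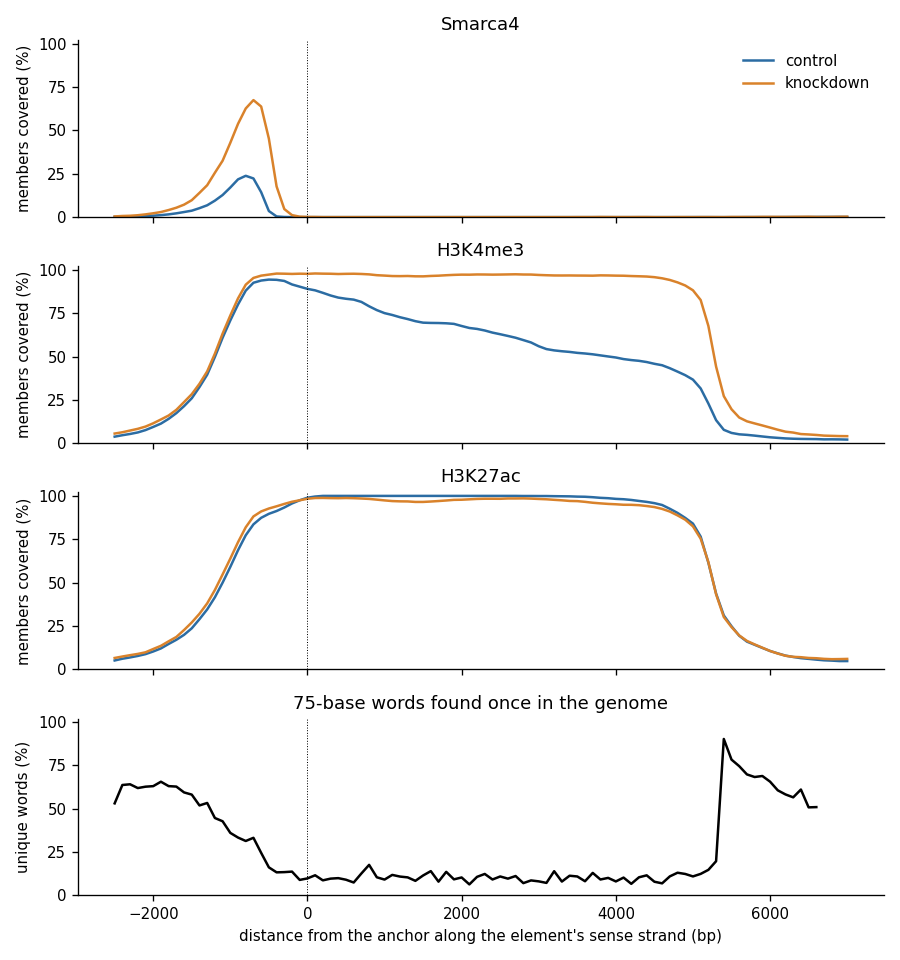
Share of the 3854 anchored LINE-1-like members (y axis, %) covered by a Smarca4 peak, an H3K4me3 island and an H3K27ac island at each distance from the anchor (x axis, bp, negative is upstream), in the control (blue) and after kd (orange). The lowest panel gives the share of 75-base words of the members found once in the genome, where at least 100 members contribute; Smarca4 is highest upstream of the anchor, with 22.3% and 67.5% at -700 bp.

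The score of the Smarca4 peaks, the authors' MACS2 score, was also higher after kd at the members. In the 1191 members with a peak in both lists, the highest score had a median of 61 in the control and 215 after kd, and was higher after kd in 1130 (94.9%). Over all control peaks shared with the kd list, the medians were 94 and 100, and 50.6% were higher after kd. Of the 1412 control peaks in members, 1365 overlapped a kd peak (96.7%, interval 95.6 to 97.5%), against 56.1% of all control peaks. Read from the kd list, 1267 of 3131 peaks in members overlapped a control peak (40.5%, 38.8 to 42.2%), against 64.5% of all kd peaks. Scores are not scaled between the 2 libraries, and the peaks shared over the whole lists, those in members included, are the reference given for them here.

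The types of 5′ end differed in Smarca4. In type 1, 869 of 1558 members (55.8%, interval 53.3 to 58.2%) had a peak in the control and 1422 (91.3%, 89.8 to 92.6%) after kd. In type 2, 68 of 1325 (5.13%, 4.07 to 6.46%) had one in the control and 897 (67.7%, 65.1 to 70.2%) after kd. Type 3 lay between them in the control, with 122 of 354 (34.5%, 29.7 to 39.6%), and below both after kd, with 211 (59.6%, 54.4 to 64.6%). Members with a short 5′ end had a peak in 9.67% and 37.0% of the cases. In type 2, 830 members thus had a peak after kd alone, against 556 in type 1 and 89 in type 3. Between the largest groups from types 2 and 3, the difference after kd was smaller when the types were drawn more strictly. When 50% in place of 35% of the words had to be shared, a choice made after seeing the data, the largest groups drawn from types 1, 2 and 3 had peaks in 75.2%, 5.73% and 49.2% of the members in the control and in 99.3%, 77.1% and 75.2% after kd. A second group of 714 members, 691 of them from type 1, then had 34.6% and 84.6%, so that type 1 was not uniform. Type 2 was not uniform either. A group of 110 members, 108 of them from type 2, had 2.73% in the control and 31.8% after kd.

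**Figure D4:**
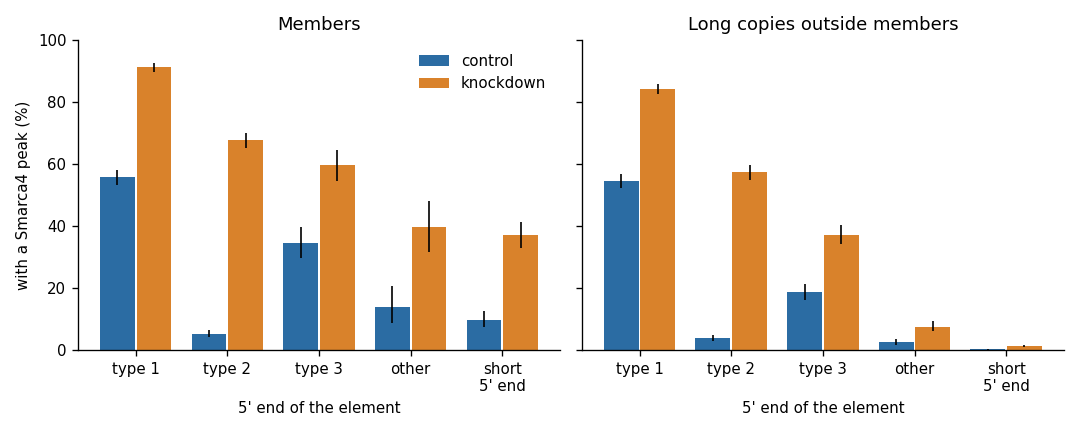
Share with a Smarca4 peak (y axis, %) by type of 5′ end, in the control (blue) and after kd (orange), for members (left) and for long LINE-1-like copies outside the members (right), with 95% Wilson intervals. Type 2 shows the widest gap between conditions on both sides, 5.13% and 67.7% among members and 3.78% and 57.3% among other copies.

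The kd peaks also differed in score between the types. Their median score was 178 in type 1, 74 in type 2 and 193 in type 3, whereas control peaks had medians of 59, 38 and 59. The median width of the kd peaks was 630, 464 and 718.5 bp. H3K27ac was called after kd in all members of types 1, 2 and 3, and H3K4me3 in 99.9%, 99.8% and 97.5% of them. H3K4me3 islands after kd had a median width of 6600 bp in each of these types.

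Copies of the element outside the members were examined, because these were not used by the choice. The genome held 17895 long copies, defined by at least 80% of the central member aligned at 80% identity or more, and 3936 of them lay in members. An H3K27ac island overlapped 83.3% of all long copies in the control and 82.3% after kd, an H3K4me3 island 44.6% and 60.7%, and a Smarca4 peak 13.3% and 32.5%. A Smarca4 peak in both lists was found at 13.2%, after kd alone at 19.3% of all long copies and in the control alone at 0.117%. Outside the members, type 1 copies had a Smarca4 peak in 54.5% (52.2 to 56.8%) of 1857 cases in the control and 84.3% (82.6 to 85.9%) after kd. For type 2 the shares were 3.78% (2.97 to 4.79%) and 57.3% (55.0 to 59.7%) of 1695, and for type 3 18.7% and 37.3% of 883. Of the 928 type 2 copies in or near genes, 41 had a Smarca4 peak in the control and 617 after kd (4.42% and 66.5%). The 8388 copies outside members with a short 5′ end had a peak in 0.203% and 1.29%. The order of types 1, 2 and 3 in each condition was thus the same at copies outside the members as at the members. Shares at type 3 and at short 5′ ends were lower than at the members. Copies outside the members are those that did not meet the full choice.

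These copies took up a growing share of the Smarca4 list. A long copy or its 5′ end held 3.43% of all control Smarca4 peaks (3.30 to 3.56%) and 8.74% of all kd peaks (8.53 to 8.95%). Among peaks called in 1 list alone, it was 36 of 34674 control peaks (0.104%) and 3801 of 25621 kd peaks (14.8%, 14.4 to 15.3%). Among the 10% of peaks with the highest score, it was 6 of 7906 control peaks (0.076%) and 1321 of 7228 kd peaks (18.3%, 17.4 to 19.2%). Islands were compared with and without a long copy in the same way. Of the islands in or near genes with H3K4me3 and 5 to 8.5 kb in width, 1952 had a copy. Smarca4 lay in 35.7% of these in the control and 75.6% after kd, and in 90.8% and 90.9% of the 837 without a copy. Members with a copy had it in 28.8% and 70.9%, and the 181 without a copy in 44.8% and 60.8%. For intergenic H3K4me3 islands of other widths, the shares were 26.1% and 51.96% with a copy and 26.3% and 37.2% without. A rise was thus not confined to islands with a copy. Without a copy the share fell in intergenic islands of this width without H3K4me3, as given above, and slightly over all control islands.

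Reads on repeats can be hard to place, and the authors kept uniquely mapped reads. Words of 75 bases were counted, the read length in the labels, although the methods give none for the Smarca4 and H3K27me3 libraries. Of these words of a member a median of 12.2% (quartiles 5.38 and 22.3%) occurred once in the reference, and in 97.3% of the members it was under 50%. The median was 54.5% in intergenic islands of the same width without H3K4me3 and 16.6% in those with H3K4me3 in or near genes. Along the element the share was 10.5% at 900 bp downstream of the anchor, 33.2% at -700 bp, 42.8% at -1100 bp and 90.2% at 5400 bp downstream, beyond the 3′ end. The Smarca4 stretch upstream of the anchor thus had more unique words than the body. Members with fewer unique words had Smarca4 more often. Below or at the median of 12.2%, 39.3% of 2040 members had a peak in the control and 86.6% after kd, and above it 19.7% and 54.2% of 2039. The same direction was seen within types, with 98.2% and 84.3% after kd in type 1, 84.5% and 50.9% in type 2 and 76.8% and 42.4% in type 3. Among the 111 members with at least 50% unique words, the shares were 35.1% (26.9 to 44.4%) and 53.2% (43.9 to 62.2%). Members of type 1 and type 2 had similar medians of unique words, 9.21% and 10.1%, and differed in control Smarca4 as given above. How far read placement shapes the calls was not tested.

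Ezh2, the enzyme that writes H3K27me3, and H3K27me3 itself were rare at the members. An Ezh2 peak lay in 4 members in the control (0.0981%, interval 0.0381 to 0.252%), against 0.609% of all control H3K27ac islands, and in 20 after kd (0.490%, 0.318 to 0.756%), against 0.47%. No member had one in both lists, so that 4 lost and 20 gained a call, against 0.485% and 0.346% of all islands. An H3K27me3 island overlapped 88 members in the control (2.16%, 1.75 to 2.65%) and 49 after kd (1.20%, 0.910 to 1.58%), against 3.54% and 3.14% of all islands. It was called in the control alone at 69 members (1.69%, against 1.78%) and after kd alone at 30 (0.735%, against 1.38%).

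The members lay at a median of 35.8 kb from the nearest TSS (quartiles 14.4 and 78.5 kb). Chromosome X held 469 of them (11.5%, against 8.12% of all control H3K27ac islands), at 2.74 per Mb, and chromosome 19 the fewest, 46, at 0.749 per Mb.

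The members with the lowest control H3K27ac p-values were not LINE-1-like. All 3 belonged to the second family, which had 37 members, 28 of them (75.7%, interval 59.9 to 86.6%) with direct repeats at both ends, at a median length of 318 bases. This is the layout of elements with long terminal repeats, and the central member of this family gave no match to L1td1. The first 300 bases of its end repeat, at chr1:10816869-10817168 (plus strand, intergenic, nearest to the pseudogene Gm5522), are shown because the 3 strongest members share this family. Capitals mark the 299 bases that are the same in the other end repeat of this member.
family 2 end repeat: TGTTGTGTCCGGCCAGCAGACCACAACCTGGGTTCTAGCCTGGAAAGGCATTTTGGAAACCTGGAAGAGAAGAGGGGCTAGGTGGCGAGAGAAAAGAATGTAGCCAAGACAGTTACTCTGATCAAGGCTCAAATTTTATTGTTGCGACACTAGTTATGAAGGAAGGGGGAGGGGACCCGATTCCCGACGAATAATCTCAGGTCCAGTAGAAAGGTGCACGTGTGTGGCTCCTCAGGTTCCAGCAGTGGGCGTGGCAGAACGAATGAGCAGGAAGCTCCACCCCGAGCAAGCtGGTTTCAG
In this family 30 members (81.1%) had a Smarca4 peak in the control and 35 (94.6%) after kd. The 3 strongest members were on chromosome 12 from 68558201 to 68566600 (nearest TSS Gm47490, 83.3% masked), on chromosome 14 from 112365001 to 112371600 (Gm20127, 97.045% masked) and on chromosome 13 from 113718001 to 113724000 (Gm6343, 97.2% masked). Their -log10 p for H3K27ac was 114, 107 and 101 in the control and 72.5, 55.1 and 116 after kd. Their Smarca4 scores were 239, 109 and 171 in the control and 249, 258 and 282 after kd. All 3 were called in both lists of H3K27ac, H3K4me3 and Smarca4 and in none of Ezh2 or H3K27me3. The central member of the family, on chromosome 1 from 10816601 to 10823800 (86.0% masked), had the same calls, with Smarca4 scores of 38 and 92.

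The members with the highest control Smarca4 scores belonged to no family and held little masked sequence. They lay on chromosome 15 from 81520601 to 81525800 (nearest TSS Gm5218, 40.5% masked), on chromosome 5 from 33527001 to 33533000 (Gm43851, 20.6% masked) and on chromosome 4 from 133089601 to 133096000 (Gm26615, 28.6% masked). Their control scores were 505, 437 and 404, and their kd scores 491, 359 and 303. Choosing the highest control scores favours lower scores in the other list, so no result is drawn from this fall. On chromosome 5 the peak was 5800 bp wide, and 669 bp of it lay in the member. All 3 were called in both lists of H3K27ac, H3K4me3 and Smarca4 and in no Ezh2 list, and the one on chromosome 4 also in both H3K27me3 lists. Of their 75-base words, at least 97.5% were unique. To set beside the repeat units, 200 bases around the middle of the part of each peak inside the member are given, plus strand, with CG dinucleotides in capitals. They are at chr15:81522684-81522883, chr5:33532566-33532765 and chr4:133095269-133095468, all intergenic, and hold 7, 0 and 5 CG dinucleotides. The stretch on chromosome 5 itself contains a tandem repeat with a shorter unit.
chromosome 15: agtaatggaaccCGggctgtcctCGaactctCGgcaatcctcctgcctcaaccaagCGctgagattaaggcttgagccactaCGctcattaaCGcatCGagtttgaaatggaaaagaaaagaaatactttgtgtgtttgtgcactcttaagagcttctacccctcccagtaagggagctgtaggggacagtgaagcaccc
chromosome 5: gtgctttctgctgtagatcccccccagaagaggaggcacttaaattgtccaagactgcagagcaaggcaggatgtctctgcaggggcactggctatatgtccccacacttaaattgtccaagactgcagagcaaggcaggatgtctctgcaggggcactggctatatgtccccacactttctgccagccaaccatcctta
chromosome 4: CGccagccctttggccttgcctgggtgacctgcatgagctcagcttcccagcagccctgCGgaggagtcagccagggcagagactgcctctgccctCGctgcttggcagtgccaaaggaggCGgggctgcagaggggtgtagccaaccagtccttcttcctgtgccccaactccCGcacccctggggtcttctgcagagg
The 49 members outside every family had a median of 43.2% masked bases, and 32 (65.3%) had a Smarca4 peak in the control and 36 (73.5%) after kd.

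Of the 7 members with neither mark after kd, the 3 with the lowest control p-values lay on chromosome 8 from 17885601 to 17892000 (nearest TSS Csmd1, at 350.0 kb, 40.2% masked), on chromosome 7 from 9002001 to 9008800 (Vmn2r39, 92.4% masked, LINE-1-like with a short 5′ end) and on chromosome 13 from 12819001 to 12824200 (Prl2c3, 49.8% masked). Csmd1 encodes a membrane protein with complement-related domains, Vmn2r39 a vomeronasal receptor and Prl2c3 a prolactin family hormone. Their control -log10 p was 43.6, 42.5 and 32.0 for H3K27ac and 10.0, 14.99 and 16.9 for H3K4me3. Only the H3K4me3 island of the first member stood near the authors' limit. All 3 were below the lower quartile of the members for H3K4me3, 17.5. The first had a Smarca4 peak in the control with a score of 57 and none after kd, and the others had none in either list. None of the 3 had an Ezh2 or H3K27me3 call.

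The central LINE-1-like member lay on chromosome 1 from 20642601 to 20647800 (nearest TSS Gm28653, fully masked) and had both marks in both conditions, no Smarca4 peak and no Ezh2 or H3K27me3 call. The central members of families 3, 4 and 5, with 10, 4 and 4 members, were on chromosome 7 from 31592401 to 31597600 (Rpl23a-ps8, 99.1% masked), chromosome 6 from 49885401 to 49892800 (Gm18007, fully masked) and chromosome X from 104719201 to 104724600 (Gm14822, 85.5% masked). They too kept both marks and matched L1td1 when translated, at 38.6%, 39.4% and 43.1% of 127, 127 and 123 amino acids. The one on X had Smarca4 scores of 48 and 158, the others had no Smarca4 peak, and none had Ezh2 or H3K27me3.

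H3K27ac changed most between the lists in a mixed set of members. The -log10 p fell most on chromosome 14 at the member named above, from 107 to 55.1. It went from 57.5 to 9.46 on chromosome 3 from 155304201 to 155310400 (Gm5285, 99.2% masked), a type 1 member whose Smarca4 score was 71 in the control and 319 after kd. On chromosome 3 from 14303801 to 14310400 (Gm38311, 97.4% masked) it went from 73.0 to 26.7, with no Smarca4 peak in either list. It rose most at the member on chromosome 15 named above, from 24.7 to 251. On chromosome 2 from 56793001 to 56801400 (Mir195b, 99.3% masked), a type 1 member, it went from 59.2 to 191, with Smarca4 scores of 94 and 395. On chromosome 18 from 56674401 to 56681400 (AC158763.1, 49.5% masked) it went from 75.9 to 191, with Smarca4 scores of 181 and 266. These 6 kept both marks after kd and had no Ezh2 or H3K27me3 call. At these extremes H3K27ac and Smarca4 did not always move the same way.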

How the data were processed

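ChIP-seq lists of 5 antibodies in control and Smarcb1 kd 81K1 cells were analysed, 1 library each. Per the labels and methods, the authors trimmed single reads (75 cycles in the labels; the methods give no length for Smarca4 and H3K27me3) with Trim Galore, aligned them to mm10 (Bowtie2), kept uniquely mapped reads with few mismatches (SAMtools 1.9), and called Smarca4 and Ezh2 peaks with MACS2 and histone islands with SICER (window 200 bp, gap 600 bp). Deposited SICER lists carry a p-value, and deposited MACS2 lists a score. Methods and sample titles name the input as background, whereas the antibody field of the labels and a figure caption of the paper name IgG. Depth is unknown.

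Members and lists were chosen with earlier results of these data known. Overlaps needed 1 bp. Genes were those of GENCODE M21 on GRCm38, the sequence of mm10, and the masking and sequences are RefSeq's copy of it. A p-value of 0 was set to a -log10 p of 324. Families came from alignment with minimap2 2.31 (asm20, 80% identity over 50% of the shorter member) to the best linked of 100 sampled members, seed 1, in place of the planned alignment of all against all, and leftovers were compared with each other. End repeats were found from shared words in place of a self alignment. Long copies came from aligning the genome in pieces of 20000 bp to the central member. L1td1 was searched with tblastx (BLAST 2.17.0). Unique words were counted on both strands of chromosomes 1 to 19, X and Y. No unit was taken from chromosome 18. Overlap and word counting were tested on simulated data. Named regions were the 3 lowest control H3K27ac p-values, the 3 highest control Smarca4 scores, the 3 strongest members that lost both marks, the centres of 5 families and the 3 largest falls and rises in H3K27ac; the 3 members with a repeat unit, the types of 5′ end and the long copies were added after seeing the data. Python 3.11.15, NumPy 2.4.6, pandas 2.3.3, SciPy 1.17.1 and numba 0.67.0 were used.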

Additional observations from a re-analysis of the deposited data

How the results depend on the processing

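Of 49 alternatives, 26 moved a share out of its counting interval and 23 were labelled the same. Each was scored as a single value, so directions between conditions were not scored. The number of members, 4079, was 4083 with gene starts alone, 4750 with protein-coding genes alone and 2784 with H3K4me3 over at least 50% of the island. H3K27ac persistence of 99.6% became 98.6% with stricter lists, 98.9% when 50% of the member had to be covered and 99.0% with the kd list shortened to the control's length. H3K4me3 persistence of 98.6% became 99.2% at widths of 5600 to 7600 bp, 99.0% without chromosomes 8 and X, 97.2% when 50% had to be covered and 94.7% with the shortened list. Control Smarca4, 29.5%, became 31.003% at the narrower widths, 25.9% with stricter lists and 26.9% with Smarca4 lists of equal length. Smarca4 after kd, 70.4%, became 75.4% at the narrower widths, 74.9% with stricter lists and 69.0% when the middle of the peak had to lie inside. The masked share of 99.2% became 99.5% both at the narrower widths and with stricter lists, and 98.8% at the 80% limit. The share of masked blocks of 6 to 7 kb, 49.0% with gaps of 100 bases joined, became 62.8% with none and 10.2% with gaps of 300 joined, which merges neighbouring repeats by construction. Family 1 held 96.3% at 90% identity, end repeats rose from 1.99% to 2.55% of all members with the wider length window, and members under 50% unique words from 97.3% to 99.0% with words of 50 bases. With 50% of words shared, added after seeing the data, Smarca4 became 75.2% in the control and 99.3% after kd for type 1, 77.1% after kd for type 2, and 49.2% and 75.2% for type 3. These values are for the largest groups. Smaller groups drawn mostly from types 1 and 2 had 84.6% and 31.8% after kd. The cause of these shifts was not tested. Without read counts, depth limits every missing call to an unknown degree. No paired analysis was possible because each antibody and condition had 1 library.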

Other observations

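The same choice applied to the kd lists gave 5662 regions, of which 5607 (99.0%) were at least 50% masked. A member overlapped 3343 of them (59.0%, 95% Wilson interval 57.8 to 60.3%), a control H3K27ac island of any width 5613 (99.1%) and a control H3K4me3 island 4207 (74.3%). A Smarca4 peak lay in 23.2% of them in the control (22.1 to 24.3%) and in 56.1% after kd (54.8 to 57.3%). Nearly all of these regions were thus places with control H3K27ac.

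Long LINE-1-like copies without any control H3K27ac island numbered 2988. A kd H3K27ac island was found at 747 of them (interval 23.5 to 26.6%), a kd H3K4me3 island at 96 (3.21%) and a kd Smarca4 peak at 13 (0.435%, 0.254 to 0.743%). Of the 2106 intergenic islands of 5 to 8.5 kb without control H3K4me3 that held a long copy, 1219 had H3K4me3 after kd (57.9%, 55.8 to 60.0%) and 73 Smarca4 (3.47%, 2.77 to 4.34%). These islands were chosen without control H3K4me3, so every kd H3K4me3 call there is a gain. A control Smarca4 peak lay in 9 of them (0.427%). Over all control H3K27ac islands, H3K4me3 was called after kd alone at 15.5% and Smarca4 at 9.84%. The relation between the calls of H3K4me3 and Smarca4 was not tested.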
